A study of Mus musculus with 32 samples.

Results

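Guanylate-binding proteins are large GTPases that cells make in response to interferons, and the 8 mouse genes Gbp2 to Gbp9 were followed here in YUMM3.3 melanoma cells treated with IFN-γ, Activin-A or both. The members were taken by symbol, and all 8 were present among the 12451 genes of the count table, found through their Ensembl identifiers. Of these, Gbp2, Gbp3, Gbp4, Gbp6 and Gbp7 had enough counts to be tested within a time point, Gbp5 and Gbp9 were tested in addition only when both times were fitted together, and Gbp8 passed neither filter on low counts. Of the further paralogs, Gbp2b was listed with 0 to 2 counts in a well and is described no further, and Gbp10 and Gbp11 were not found in the count table.

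YUMM3.3 is a mouse melanoma line, and all wells were cultures of this 1 line, grown in quadruplicate. Untreated cells were compared with cells given 40 ng/ml Activin-A, a TGF-β related ligand that signals through SMAD2 and SMAD3, 20 ng/ml IFN-γ, or both at these doses, each for 4 hrs or 12 hrs. The labels and methods give these doses, and other passages of the study give a higher dose of Activin-A. That made 8 groups of 4 wells, 32 samples in all, measured by BRB-seq, a method that barcodes the cDNA of each sample, pools it and reads transcripts near their 3′ end. The wells were seeded and treated separately, but the sources used here do not say whether on separate days, so p-values measure only the spread between these wells. Each well is a bulk sample, in which fewer expressing cells and less RNA per cell cannot be told apart.

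In the known pathway, IFN-γ binds its receptor, and the signal passes through the kinases JAK1 and JAK2 to GAS elements in target promoters. Among the targets is IRF1, which with other IRF proteins binds ISRE elements. The GBP proteins that follow bind and hydrolyse GTP, assemble on the vacuoles or surfaces of intracellular pathogens and promote inflammasome activation and cell-autonomous defence. Some, among them GBP2 and GBP5, carry a C-terminal prenylation signal that anchors them in membranes. In the mouse the genes lie in a pair of clusters: Gbp2, Gbp3, Gbp5 and Gbp7 on chromosome 3, and Gbp4, Gbp6, Gbp8 and Gbp9 on chromosome 5.

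Totals ranged from 654539 to 1455074 counts per well with a median of 988019.5, and 3 counts, the floor used here, corresponded to 2.06 to 4.58 CPM, counts scaled to a common library size. All 7 markers of the melanocyte lineage were present, with a summed level of 321 to 446 CPM in every well. Of the leukocyte markers 3 of 7 were listed, with a sum of 2.9 to 25.7 CPM and with Cd3e, Itgam and Adgre1 among those absent from the table. None of the 3 endothelial markers was listed, while 1 of 3 keratinocyte markers gave 1.09 to 15.1 CPM and 3 of 4 fibroblast markers gave 34.6 to 75.0 CPM. The well labelled Activin-A replicate 1 at 4 hrs stood apart from its group: its counts differed from those of the other 3 wells with a chi-square of 2.60 to 3.07 per gene, compared to 1.17 to 1.59 in the other 45 pairs of wells of a group. Comparisons with this group are also given without this well, an alternative chosen after seeing the data.

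The promoters of the chromosome 3 members are shown first, searched for the core letters of the GAS and ISRE elements of interferon signalling. Of the 8 members, 4 had promoter windows in the RefSeq table (GRCm38.p6), which run from 250 bases before to 50 bases after an annotated start. Both strands were searched for the ISRE core, GAAA followed by any 2 bases and GAAA, and for the GAS core, TTCNNNGAA. The GAS core reads the same on both strands, and in these windows no ISRE match overlapped a GAS match. The 250 bases upstream of the start are printed below 5′ to 3′ on the plus strand, with matches in capitals. All ISRE cores lay on the minus strand and appear here as their reverse complement.

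Gbp2, chr3:142620413-142620662, plus strand: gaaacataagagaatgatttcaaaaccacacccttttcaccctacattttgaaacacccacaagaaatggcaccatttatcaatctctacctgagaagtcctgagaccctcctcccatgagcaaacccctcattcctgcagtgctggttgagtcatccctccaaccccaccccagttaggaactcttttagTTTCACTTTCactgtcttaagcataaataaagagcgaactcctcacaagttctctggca

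Gbp3, chr3:142559794-142560043, plus strand: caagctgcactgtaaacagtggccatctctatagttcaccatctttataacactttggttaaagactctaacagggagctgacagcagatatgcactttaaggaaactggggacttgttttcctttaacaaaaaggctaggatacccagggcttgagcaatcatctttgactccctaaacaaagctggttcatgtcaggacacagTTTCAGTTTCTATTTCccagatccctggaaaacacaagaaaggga

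Gbp7, chr3:142530086-142530335, plus strand: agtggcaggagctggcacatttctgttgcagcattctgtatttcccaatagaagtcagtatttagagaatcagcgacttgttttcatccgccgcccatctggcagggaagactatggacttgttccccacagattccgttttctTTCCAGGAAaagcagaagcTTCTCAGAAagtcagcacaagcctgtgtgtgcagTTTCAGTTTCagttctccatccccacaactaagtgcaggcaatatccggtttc

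Gbp5, chr3:142496684-142496933, plus strand: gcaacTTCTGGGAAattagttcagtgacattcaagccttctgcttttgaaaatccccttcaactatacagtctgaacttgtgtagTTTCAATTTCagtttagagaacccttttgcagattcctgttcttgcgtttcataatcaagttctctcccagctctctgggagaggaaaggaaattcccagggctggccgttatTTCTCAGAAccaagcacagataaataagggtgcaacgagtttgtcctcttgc

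All 4 members held at least 1 ISRE core. In Gbp2 it lay at -59 to -50 from the start and in Gbp7 at -53 to -44. Gbp3 had a pair of overlapping matches at -45 to -36 and -39 to -30, which share 4 bases. In Gbp5 the match lay further away, at -165 to -156. GAS cores were found in Gbp7, at -106 to -98 and -87 to -79, and in Gbp5, at -245 to -237 and -52 to -44, but not in the Gbp2 or Gbp3 windows. A second annotated start of Gbp3 had a window with no match of either motif. Among all 32851 windows of the table, 3.44% held the ISRE core, 8.30% the GAS core and 0.454% both. Counted by gene, as the members are, these were 3.99%, 9.55% and 0.540% of 27025 genes with a match in at least 1 window. These are matches of letters in a window, and nothing was measured at them in these cells.

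**Figure D1:**
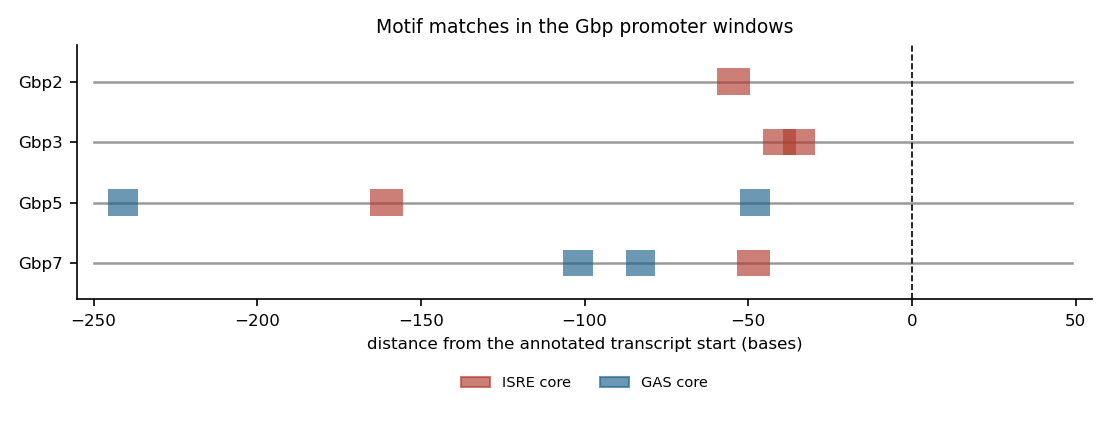
Matches of the ISRE core (red) and the GAS core (blue) in the promoter windows of Gbp2, Gbp3 (the window with matches), Gbp5 and Gbp7, plotted against distance in bases from the annotated transcript start at 0. The ISRE cores of Gbp2, Gbp3 and Gbp7 lie between -59 and -30, that of Gbp5 between -165 and -156.

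Gbp2, whose protein is recruited to pathogen vacuoles, gave the most counts of the family in every group. In untreated cells it was at 64.2, 64.6, 52.2 and 58.5 CPM in the 4 wells at 4 hrs, and at 65.5, 43.4, 41.6 and 65.4 CPM at 12 hrs. With IFN-γ it reached 3582, 3521, 3595 and 3295 CPM at 4 hrs and 4737, 4760, 4652 and 4957 CPM at 12 hrs. Each of these wells was far above each untreated well of its time, and each 12 hrs well was above each 4 hrs well. At 12 hrs the mean rose from 54.0 ± 13.3 CPM (SD, n = 4) to 4777 ± 129 CPM, a log2 fold change (log2FC) of 6.46 with a standard error (SE) of 0.07 and an adjusted p of 2.17e-91 in edgeR's quasi-likelihood test. The fold was 88.0, with a 95% confidence interval of 79.5 to 97.4. At 4 hrs the log2FC was 5.86 (SE 0.08, adjusted p = 6.90e-53), a fold of 58.2.

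Gbp3, a neighbour of Gbp2 on chromosome 3, was at 17.6, 14.3, 18.5 and 21.8 CPM in the untreated wells at 4 hrs and at 11.6, 8.86, 12.0 and 11.7 CPM at 12 hrs. With IFN-γ it was at 467, 455, 433 and 431 CPM at 4 hrs and at 715, 733, 724 and 731 CPM at 12 hrs. The IFN-γ wells did not overlap with the untreated wells at either time. The log2FC was 4.63 (SE 0.13, adjusted p = 7.94e-37) at 4 hrs and 6.04 (SE 0.11, adjusted p = 1.33e-70) at 12 hrs, where the fold was 65.6.

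Gbp7, whose protein has been linked to autophagy and oxidative defence, was at 10.6, 9.51, 6.53 and 14.9 CPM in untreated wells at 4 hrs and at 4.62, 6.20, 4.37 and 9.34 CPM at 12 hrs. IFN-γ brought it to 294, 337, 285 and 327 CPM at 4 hrs and to 383, 401, 364 and 400 CPM at 12 hrs. Again no IFN-γ well overlapped with an untreated well. The log2FC was 4.89 (SE 0.15, adjusted p = 5.40e-35) at 4 hrs and 6.00 (SE 0.15, adjusted p = 9.59e-60) at 12 hrs, a fold of 63.8.

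The chromosome 5 members were counted in far smaller numbers, and their wells are given as counts. Gbp6 had 1, 2, 2 and 0 counts in untreated wells at 4 hrs and 1, 3, 2 and 0 at 12 hrs. With IFN-γ it had 27, 37, 27 and 37 counts at 4 hrs and 41, 49, 36 and 53 at 12 hrs. The groups were fully separated, with a log2FC of 4.66 (SE 0.39, adjusted p = 7.49e-15) at 4 hrs and 4.87 (SE 0.35, adjusted p = 3.71e-23) at 12 hrs. Gbp4 had 2, 1, 1 and 3 counts in untreated wells and 16, 9, 9 and 16 with IFN-γ at 4 hrs. At 12 hrs it had 3, 0, 2 and 4 counts in untreated wells and 23, 32, 35 and 36 with IFN-γ. Its log2FC was 2.87 (SE 0.50, adjusted p = 1.68e-05) at 4 hrs and 3.82 (SE 0.37, adjusted p = 1.44e-15) at 12 hrs, the smallest of the 5 tested members at both times.

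Gbp5, Gbp9 and Gbp8 were close to the floor without IFN-γ. Gbp5, which promotes assembly of the NLRP3 inflammasome, had 0 counts in all 4 untreated wells at 12 hrs and 11, 6, 7 and 10 counts with IFN-γ. Against a floor of 3 counts over the untreated group it was at least 12.1-fold higher. At 4 hrs it had 0, 0, 0 and 2 counts in untreated wells and 9, 12, 6 and 17 with IFN-γ, a ratio of CPM of 23.7 with a 95% counting interval of 6.19 to 202. Gbp9 had 2 counts in all over the untreated wells at 12 hrs and 9, 10, 11 and 8 with IFN-γ, a ratio of 20.2 (5.23 to 173). At 4 hrs it had 1 count over the untreated wells and 3, 10, 0 and 5 with IFN-γ, so that the wells overlapped, with a ratio of 19.4 (3.06 to 809). Gbp8 had 0 counts in every untreated well at 12 hrs and 0, 3, 3 and 3 with IFN-γ, at least 3.19-fold higher. At 4 hrs it had 1 count untreated and 2 with IFN-γ, too few for a fold. Without a filter on low counts, edgeR gave adjusted p-values of 6.01e-09 for Gbp5, 1.90e-07 for Gbp9 and 0.0225 for Gbp8 at 12 hrs. At 4 hrs those were 1.34e-07, 0.00398 and 0.904.

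**Figure D2:**
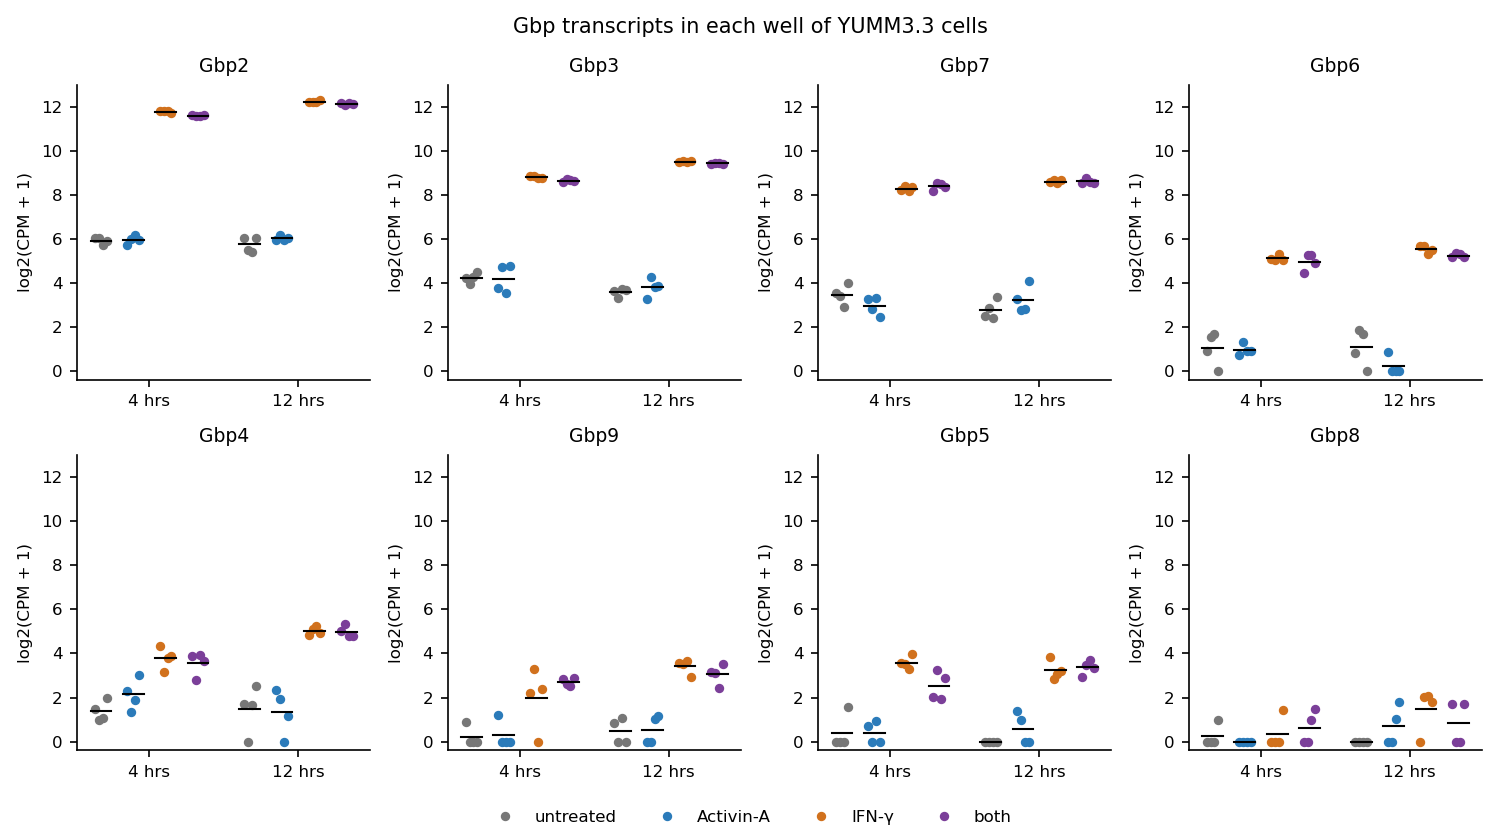
Level of each Gbp member in each of the 32 wells, as log2(CPM + 1), by time and treatment, where points are wells and bars the mean of the 4 log2 values. Gbp2, Gbp3, Gbp7, Gbp6 and Gbp4 are higher in every IFN-γ well than in every untreated well at both times, and Gbp8 reaches 2.49 to 3.20 CPM in 3 of 4 IFN-γ wells at 12 hrs.

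Of the 8 members, 5 were tested and rose with IFN-γ at both times, and Gbp5, Gbp8 and Gbp9 were not tested within a time. Of the 8971 genes tested at 12 hrs 6.43% rose and 2.82% fell, and of the 9137 tested at 4 hrs 4.29% rose and 0.766% fell. The members' count cannot be read against these shares, because Gbp4, Gbp6 and Gbp7 reached the filter on low counts only through wells with IFN-γ and so had to be higher there to be tested. Gbp2 and Gbp3 reached it in the wells without IFN-γ as well. All IFN-γ wells lay above all untreated wells for 7 of 8 members at 12 hrs (Gbp8 was the exception) and for 6 of 8 at 4 hrs (Gbp8 and Gbp9 were the exceptions), which included all 5 tested members at both times. Among all genes tested 7.64% and 6.30% were separated in this way, a share that the members' counts cannot be read against for the same reason, and because Gbp5, Gbp8 and Gbp9 are not among those genes. As a share of all counts, the 8 members together went from 0.00760% of a well without treatment to 0.588% ± 0.0116 (SD, n = 4) with IFN-γ at 12 hrs, and from 0.00932% to 0.424% ± 0.0141 at 4 hrs. Gbp2 made up 71.2% of the Gbp counts in untreated wells and 79.8% in IFN-γ wells at 12 hrs, shares of 3′-end counts that were not corrected for transcript length.

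In the presence of Activin-A the same question was asked by comparing both factors with Activin-A alone. The same 5 members were tested and were higher with IFN-γ at 12 hrs and at 4 hrs, where 6.18% and 4.41% of genes were, and here too Gbp4, Gbp6 and Gbp7 were tested only because of their counts with IFN-γ. At 12 hrs the log2FC was 6.13 for Gbp2 (adjusted p = 5.96e-90), 5.68 for Gbp3, 5.45 for Gbp7, 6.65 for Gbp6 and 3.74 for Gbp4. The value for Gbp6 rests on a total of 1 count over the 4 wells with Activin-A alone, for which the ratio of CPM was 151 with a 95% counting interval of 26.7 to 6020. All wells with both factors were above all wells with Activin-A for 7 of 8 members at 12 hrs and 6 of 8 at 4 hrs. Of the 5 tested members 5 and 4 were among them, and of all genes tested 7.10% and 6.14%, with the same limit on reading the counts against these shares.

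At 4 hrs the same comparison gave 5.66 for Gbp2, 4.51 for Gbp3, 5.51 for Gbp7 and 4.93 for Gbp6. Without the Activin-A well that stood apart these were 5.57, 4.32, 5.65 and 4.76. Gbp4 gave the smallest value, 1.44 (SE 0.41, adjusted p = 0.0182). It had 6, 1, 3 and 8 counts with Activin-A and 13, 7, 15 and 13 with both factors, so that 1 well of each group overlapped. This call was lost with DESeq2 (adjusted p = 0.0921) and when any of 5 wells was left out, with adjusted p-values of 0.0533, 0.0539 and 0.0768 without Activin-A replicates 1, 2 and 3, and 0.0683 and 0.0813 without replicates 1 and 3 of both factors. Over 14 alternatives its adjusted p lay between 0.00567 and 0.0921.

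**Figure D3:**
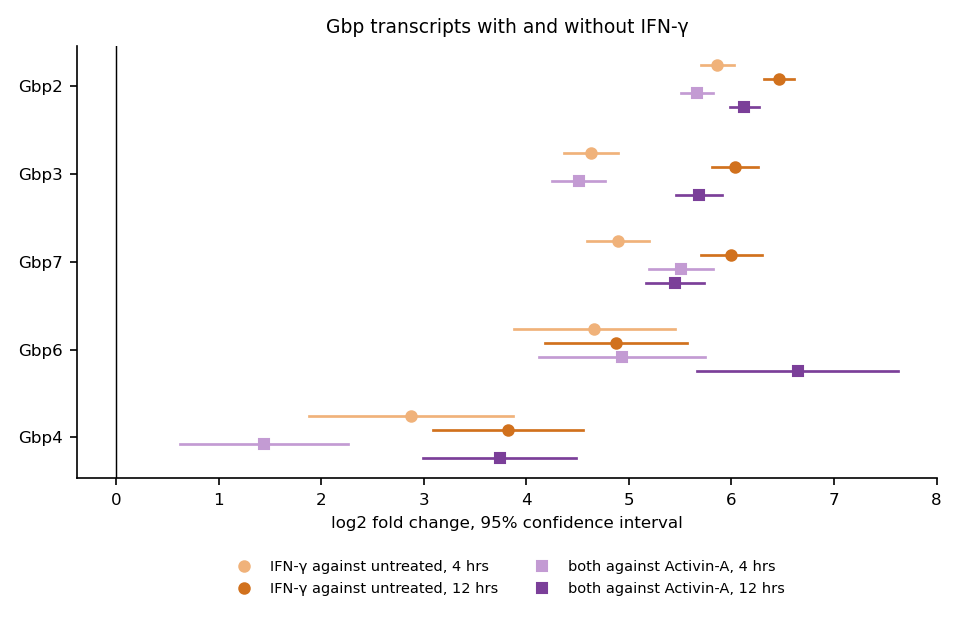
Log2 fold change with its 95% confidence interval for the 5 tested members, for IFN-γ against untreated cells (circles) and both factors against Activin-A (squares), with 4 hrs in light and 12 hrs in dark colour. All 20 intervals lie above 0, and the lowest estimate is that of Gbp4 for both factors against Activin-A at 4 hrs, 1.44.

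The induction grew between 4 hrs and 12 hrs for some members. The log2FC to IFN-γ was larger at 12 hrs by 1.42 (SE 0.26, adjusted p = 0.000292) for Gbp3 and by 0.61 (SE 0.13, adjusted p = 0.00526) for Gbp2, so that 2 of 7 members tested over both times passed, beside 0.439% of 9332 genes. Within a time Gbp2 and Gbp3 reached the filter without IFN-γ as well, but Gbp4, Gbp6 and Gbp7 did not. The 2 of 7 therefore cannot be read against that share. The Gbp3 call was kept in 24 of 24 alternatives. That of Gbp2 was lost without untreated replicate 2 at 12 hrs (0.51, adjusted p = 0.0785) or replicate 3 at 12 hrs (0.51, adjusted p = 0.0649), the wells in which Gbp2 was at 43.4 and 41.6 CPM. The differences of 1.12 for Gbp7 (adjusted p = 0.206), 0.97 for Gbp4 (adjusted p = 0.882) and 0.23 for Gbp6 (adjusted p = 0.988) did not pass. Gbp5 (1.91, adjusted p = 0.837) and Gbp9 (0.33, adjusted p = 1.00) did not pass either, and their fitted differences depend on untreated groups with 0 to 2 counts in all.

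The untreated baseline enters these differences. Between 4 and 12 hrs, 0 of 7 members passed edgeR's test in untreated cells, where 4.90% of genes did, with 2 of 7 at an unadjusted p under 0.05, beside 17.5% of genes. Those were Gbp3 with a log2FC of -0.71 (adjusted p = 0.0986) and Gbp7 with -0.80 (adjusted p = 0.190). Within the IFN-γ wells alone, a comparison chosen after seeing the data, 4 of 7 members were higher at 12 hrs than at 4 hrs, beside 4.84% of genes. That count cannot be read against the share, since Gbp4 and Gbp7, among the 4, reached the filter within a time only through wells with IFN-γ. The log2FC was 0.46 for Gbp2 (adjusted p = 2.27e-11), 0.71 for Gbp3 (adjusted p = 1.36e-14), 0.32 for Gbp7 (adjusted p = 0.00282) and 1.28 for Gbp4 (adjusted p = 0.000276). Gbp6 (0.44, adjusted p = 0.120), Gbp9 (1.0, adjusted p = 0.136) and Gbp5 (-0.40, adjusted p = 0.582) did not pass. The wells with both factors gave the same 4 members, 0.55 for Gbp2, 0.78 for Gbp3, 1.46 for Gbp4 and 0.23 for Gbp7 (adjusted p = 0.0477), beside 3.69% of genes and with the same limit.

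Because Gbp2 and the other members were counted in the same well, their ratio does not depend on a well's depth, and it was added as a measure after seeing the data. Gbp3 counts were 12.8% ± 0.492 (SD, n = 4) of Gbp2 counts at 4 hrs with IFN-γ and 15.2% ± 0.362 at 12 hrs, with ranges of 12.0% to 13.1% and 14.7% to 15.6% that did not overlap. With both factors they were 13% ± 0.553 and 15.3% ± 0.573. Gbp4 counts were 0.387% ± 0.133 and 0.671% ± 0.100 of Gbp2 counts with IFN-γ, and 0.369% and 0.690% with both factors. Gbp7 went the other way in its means, from 8.90% to 8.10% with IFN-γ and from 10.8% to 8.71% with both, and Gbp6 stood at 0.973% and 0.954% with IFN-γ and at 1.00% and 0.826% with both. In two-sided exact permutation tests, the Gbp3 and Gbp4 differences each gave p = 0.0286, the smallest that 4 wells against 4 allow. Over the 16 comparisons made, this is an adjusted p of 0.114, so none passed. For Gbp7 the exact p was 0.257 with IFN-γ and 0.0571 with both factors, and for Gbp6 it was 0.743 and 0.286.

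**Figure D4:**
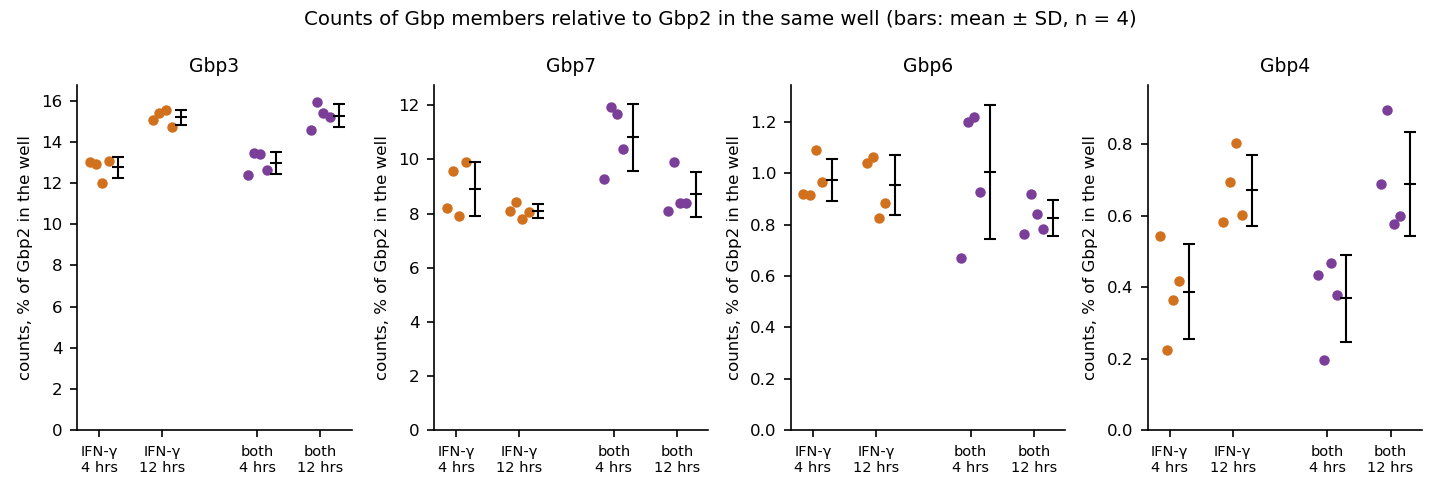
Counts of Gbp3, Gbp7, Gbp6 and Gbp4 as a percentage of the Gbp2 counts of the same well, for IFN-γ (orange) and both factors (purple) at 4 and 12 hrs, with points for wells and bars for the mean ± SD of 4 wells. Gbp3 and Gbp4 lie higher at 12 hrs than at 4 hrs in every well of both treatments.

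Whether Activin-A altered this induction was asked by comparing both factors with IFN-γ alone. By edgeR 0 of 5 members passed at either time, where 1.03% of genes did at 12 hrs and 0.810% at 4 hrs, and DESeq2 likewise called 0. At an unadjusted p under 0.05 there were 1 member of 5 at 12 hrs (Gbp2), beside 10.3% of genes, and 2 of 5 at 4 hrs (Gbp2 and Gbp3), beside 9.3%. Estimates were below 0 for 4 of 5 members at both times, beside 51.8% of genes at 12 hrs and 51.9% at 4 hrs.

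Gbp2 at 4 hrs was the closest to the threshold. Wells with both factors had 3115, 3072, 3027 and 3098 CPM, all below the lowest IFN-γ well at 3295 CPM. The log2FC was -0.19 (SE 0.05, 95% confidence interval -0.29 to -0.08, adjusted p = 0.0953), or 0.880 of the level with IFN-γ. Without the Activin-A well that stood apart, which belongs to neither group compared, it passed (-0.18, adjusted p = 0.0118), and also when only the wells compared were fitted (adjusted p = 0.0169). Over 17 alternatives the adjusted p lay between 0.0118 and 0.286, under 0.05 in these 2. At 12 hrs Gbp2 was at 4555, 4342, 4557 and 4431 CPM with both factors, again below every IFN-γ well, with a log2FC of -0.09 (SE 0.05, adjusted p = 0.480, 0.419 to 0.699 over 16 alternatives).

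Gbp3 had 386, 414, 406 and 392 CPM with both factors at 4 hrs and 664, 693, 703 and 674 CPM at 12 hrs, below every IFN-γ well at both times. At 12 hrs this depended on the scaling. By library totals alone, replicates 2 and 3 of both factors were at 692 and 706 CPM, above IFN-γ replicate 1 at 691 CPM. The log2FC of Gbp3 was -0.16 (95% confidence interval -0.32 to -0.0023, adjusted p = 0.531) at 4 hrs and -0.08 (-0.20 to 0.03, adjusted p = 0.688) at 12 hrs. With the scaling used here, such separation below the IFN-γ wells was seen for 2 of the 5 tested members at both times, beside 3.46% of genes tested at 12 hrs and 2.91% at 4 hrs. By library totals Gbp3 is lost from this count at 12 hrs. Of the 3 untested members, 1 was separated as well, Gbp5 at 4 hrs, with 3, 10, 3 and 7 counts against 9, 12, 6 and 17 in wells of other depth. The ratio of its CPM was 0.465 with a counting interval of 0.268 to 0.786, and its adjusted p without a filter was 0.325. At 12 hrs this ratio was 1.10 (0.665 to 1.83).

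For the other members the intervals show what these wells could resolve. Gbp7 gave a log2FC of 0.09 (-0.07 to 0.26) at 4 hrs and 0.01 (-0.13 to 0.15) at 12 hrs. Gbp6 gave -0.11 (-0.50 to 0.28) and -0.29 (-0.65 to 0.07), and Gbp4 gave -0.23 (-0.89 to 0.43) and -0.05 (-0.48 to 0.38). Gbp9 was at a ratio of 1.19 (0.617 to 2.32) at 4 hrs and 0.784 (0.460 to 1.32) at 12 hrs, and Gbp8 at 0.490 (0.110 to 1.76) at 12 hrs. The effect of Activin-A under IFN-γ did not differ between the times for any of 7 members by edgeR, beside 0.0964% of genes, with 1 member of 7 at an unadjusted p under 0.05 (Gbp5, 1.22, adjusted p = 0.674), beside 6.67% of genes.

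**Figure D5:**
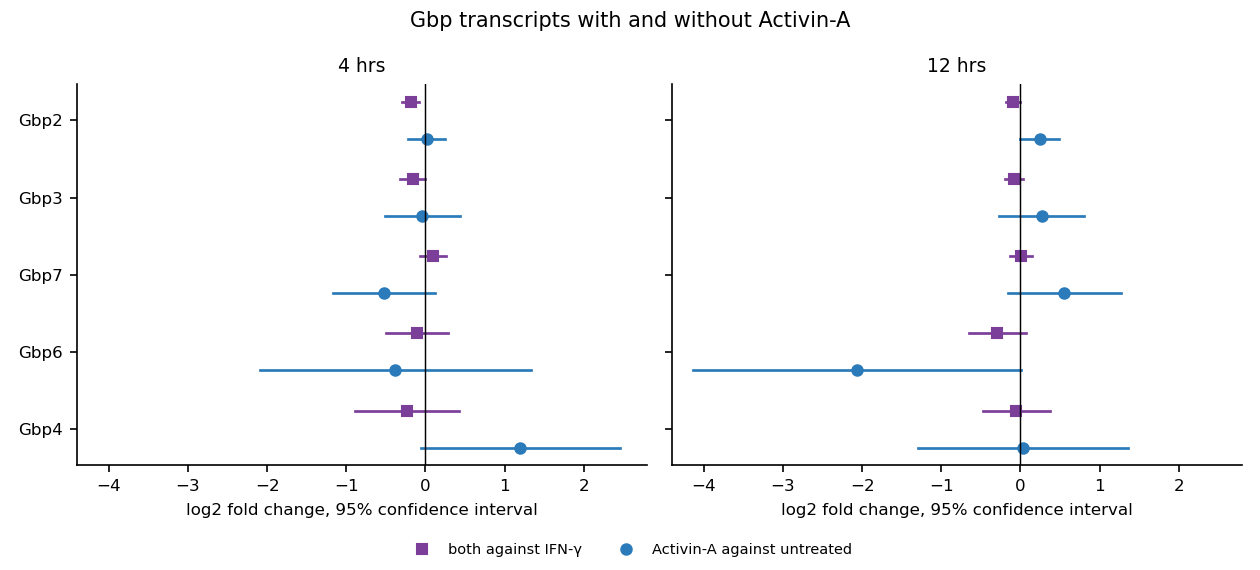
Log2 fold change with its 95% confidence interval for the 5 tested members at 4 hrs and 12 hrs, for both factors against IFN-γ (squares) and Activin-A against untreated cells (circles). Intervals for both factors against IFN-γ lie wholly below 0 for Gbp2 at both times and Gbp3 at 4 hrs before adjustment, and the widest interval is that of Gbp6 for Activin-A at 12 hrs.

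For Activin-A alone against untreated cells no member passed the test, and the intervals of the low-count members were wide. By edgeR 0 of 5 members passed at 12 hrs, beside 2.41% of genes, and 0 of 5 at 4 hrs, beside 1.64%, with 0 members at an unadjusted p under 0.05 at either time, beside 11.3% of genes at each. DESeq2 called none of them either. Gbp2 was at 60.7, 70.7, 61.2 and 63.7 CPM with Activin-A at 12 hrs, within the range of the untreated wells except for 1 well, with a log2FC of 0.24 (SE 0.13, adjusted p = 0.492). Gbp3 (0.27), Gbp7 (0.56) and Gbp4 (0.03) also had estimates above 0 at 12 hrs, while Gbp6 had -2.07 (95% confidence interval -4.14 to 0.01, adjusted p = 0.446) from 1 count with Activin-A against 6 untreated. At 4 hrs the estimates ran from -0.52 for Gbp7 to 1.2 for Gbp4 (95% confidence interval -0.06 to 2.46, adjusted p = 0.475), with 0.02 for Gbp2 and -0.04 for Gbp3. Without the well that stood apart, Gbp2 was at 0.11, Gbp3 at 0.15, Gbp4 at 1.22, Gbp6 at -0.21 and Gbp7 at -0.67, and none passed. In no member did the wells of Activin-A and untreated cells separate fully, upwards or downwards, which 3.39% and 3.38% of genes did at 12 hrs and 3.40% and 2.81% at 4 hrs. So few members are not set apart from these shares. Gbp5, Gbp8 and Gbp9 are not among those genes and had at most 2 counts in any of these wells.

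The interaction compares the effect of Activin-A with and without IFN-γ. By edgeR 0 of 5 members passed at 12 hrs and at 4 hrs, where 0.0111% and 0% of genes passed, and DESeq2 called none of them. At an unadjusted p under 0.05 there was 1 member of 5 at each time, beside 6.82% of genes at 12 hrs and 5.53% at 4 hrs. These were Gbp2 at 12 hrs (-0.33, SE 0.13, adjusted p = 0.574) and Gbp4 at 4 hrs (-1.43, SE 0.71, adjusted p = 0.891), which was at -1.44 (adjusted p = 0.914) without the well that stood apart.

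The rest of the pathway was read from lists of genes that act before, beside or after the GBPs. Of the 14 regulators from the IFN-γ receptor to the SOCS proteins, all were tested, 1 of them only through its counts with IFN-γ. With IFN-γ 10 rose and 0 fell at 12 hrs, with a median log2FC of 1.87, and 10 rose and 1 fell at 4 hrs, with a median of 1.72. Over all genes tested the median was -0.01 at both times, 6.43% rose and 2.82% fell at 12 hrs, and 4.29% rose and 0.766% fell at 4 hrs. Irf1, a transcription factor, rose by 3.96 at 12 hrs and 4.22 at 4 hrs, and Nlrc5, the activator of MHC class I genes, by 4.03 and 3.59. The gene that fell at 4 hrs was Ifngr2, a receptor chain, with a log2FC of -0.42. For both factors against IFN-γ 0 of 14 passed at either time by edgeR, beside 1.03% of genes at 12 hrs and 0.810% at 4 hrs. With IFN-γ, Irf1 stood at 781 ± 24.7 CPM at 4 hrs and 696 ± 27.8 CPM at 12 hrs (SD, n = 4), so that its mean was lower at 12 hrs while those of Gbp2 and Gbp3 were higher.

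Immunity-related GTPases are a second family of interferon-induced GTPases that act at pathogen vacuoles. Of 12 on the list 9 were present and 7 were tested and rose at both times, beside 6.43% of genes at 12 hrs and 4.29% at 4 hrs. Of the 7, 3 at 12 hrs and 4 at 4 hrs were tested only through their counts with IFN-γ, so this count cannot be read against those shares. The other 2 genes present, 9930111J21Rik2 and F830016B08Rik, had at most 2 counts in a well without IFN-γ and were not tested. Igtp rose by 5.51 at 12 hrs and 5.85 at 4 hrs. Gm4951 had fitted values of 6.96 and 5.25 and Tgtp1 of 6.74 and 6.38, which depend on the prior count and are no bounds, since these genes had 0 or 1 count over the untreated wells of a time. Among other large GTPases, a list of 8, the interferon targets Mx1 and Mx2 had too few counts to be tested within a time. By edgeR 0 of 3 tested passed at either time, with 0 at an unadjusted p under 0.05 at 12 hrs. Of all genes tested 6.43% rose and 2.82% fell at 12 hrs, and 4.29% rose and 0.766% fell at 4 hrs. At an unadjusted p under 0.05 there were 1672 of 8971 genes at 12 hrs. A list of 3 genes with 0 passing is not set apart from these shares. At 12 hrs the mitochondrial fission protein Dnm1l was at -0.20, and the atlastins Atl2 and Atl3, which shape the endoplasmic reticulum, were at -0.17 and -0.11.

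Downstream of GBPs, in inflammasome and pyroptosis genes, 9 of 10 were present. Of the 4 tested 2 rose at 12 hrs and 2 at 4 hrs, beside 6.43% and 4.29% of all genes tested. Casp4 and Il18 were tested only through their counts with IFN-γ, so these counts cannot be read against those shares. Casp4, which encodes the lipopolysaccharide sensor caspase-11, rose by 4.22 at 12 hrs and 3.07 at 4 hrs. Gsdmd, the pore-forming gasdermin D, rose by 1.23 at 12 hrs. Il18 was at 0.75 (adjusted p = 0.0888) at 12 hrs and rose by 1.21 (adjusted p = 0.0315) at 4 hrs, a call that DESeq2 did not make (adjusted p = 0.125). The Il18 call was also lost without untreated replicate 1, 2 or 3 or IFN-γ replicate 1 or 3 at 4 hrs, with adjusted p-values of 0.0594 to 0.175. Among the 6 prenylation enzymes, 0 rose and 1 fell at 12 hrs, beside 6.43% and 2.82% of genes, and so few genes are not set apart from these shares. It was Icmt, which methylates prenylated proteins, and it fell by 0.63 on the log2 scale (adjusted p = 0.0107). This call was lost with DESeq2 (adjusted p = 0.0914), without untreated replicate 1 (adjusted p = 0.0817) and without IFN-γ replicate 4 (adjusted p = 0.138). Pggt1b and Fnta, subunits of prenyl transferases, were at 0.23 and -0.19. At 4 hrs 0 of 6 passed by edgeR, beside 4.29% of genes that rose and 0.766% that fell.

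The 13 measured genes of ATG conjugation and of the ubiquitin coat on GBP-marked vacuoles had 3 that rose at 12 hrs, beside 6.43% of all genes, and the median log2FC of the list was 0.02. These were Ube2l6 (2.98), an ISG15-conjugating enzyme, Isg15 (2.47), a ubiquitin-like protein, and Rnf213 (2.20), a large ubiquitin ligase. At 4 hrs they rose by 2.07, 1.73 and 2.23, and Sqstm1, the autophagy receptor p62, fell by 0.24, with a list median of 0.13 and beside 4.29% of genes that rose and 0.766% that fell. The other 10 genes of the list did not pass at 12 hrs. With both factors Isg15 was lower than with IFN-γ at 12 hrs, with a log2FC of -0.45 (SE 0.09, adjusted p = 0.000321), the 1 gene of all these lists that passed in that comparison. DESeq2 called 0 genes of this list there.

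Genes whose pattern over the 8 group means was most like that of the 5 tested members were picked by Pearson correlation among 8623 genes with at least 10 counts on average. They were Tap1 (r = 0.999), a peptide transporter, Psmb10 (r = 0.999), an immunoproteasome subunit, Apol6 (r = 0.997), Zbp1 (r = 0.997), a sensor of Z-form nucleic acids, and Apol9a (r = 0.996). Tap1 went from 21 to 388 CPM with IFN-γ at 12 hrs, Psmb10 from 40.2 to 542 CPM and Zbp1 from 4.62 to 242 CPM. Between members the correlation ran from 0.934 for Gbp4 and Gbp7 to 0.998 for Gbp2 and Gbp7. These are descriptions over 8 means that share wells and depth.

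Related genes can share reads, and how reads matching several genes were counted is not given in the sources used here. In GENCODE M21 transcripts, 74.6% of the 60-base stretches in the last 500 bases of Gbp6 also occur in Gbp9, Gbp10 or Gm43302. For Gbp4 this was 15.1%, for Gbp8 2.95%, for Gbp9 2.72%, for Gbp3 2.58% (with Gbp7) and for Gbp5 1.62%. For Gbp2 and Gbp7 it was 0%. By exon overlap on the same strand, 29.0% of Gbp6 bases are shared with Gm43302 and 11.3% of Gbp7 bases with Gm43802. Values of Gbp6 and Gbp4 are therefore uncertain as to the gene they belong to, while those of Gbp2 do not depend on these stretches.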

How the data were processed

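Counts per gene in 32 wells were deposited by the authors as whole numbers without normalization. Per the labels, the submitters' processing notes name STAR 2.7.10b, featureCounts, DESeq2 1.36.0 and the builds GRCm39 and mm39, and how unique molecular identifiers, reads matching several genes and strand were handled is not given in the sources used here. Of 12451 genes, 12437 were matched to a symbol in GENCODE M21 (GRCm38). The Gbp members and all gene lists were chosen with earlier results of these data known.

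Low-count genes were removed by edgeR's filterByExpr, given the groups, and the rest were scaled by TMM and tested with edgeR 4.0.16 (glmQLFit and glmQLFTest, R 4.3.3) over the 16 wells of a time, or all 32 for contrasts between times, with Benjamini-Hochberg adjustment over all genes tested and a threshold of 0.05. An SE is the absolute log2FC divided by the square root of F. CPM were scaled by TMM over all wells. A fold against a group with 0 counts used a floor of 3 counts over the group, and other ratios of CPM given for members with low counts have an exact counting interval. Intervals and floors cover counting error only. Within-well ratios to Gbp2 were compared by two-sided exact permutation over 70 divisions. All members were named, as were Irf1 and up to 3 genes of each list with the highest absolute log2FC for IFN-γ at 12 hrs, genes of the lists that passed for both factors against IFN-γ at 12 hrs, and the 5 genes most like the members. Ifngr2 and Sqstm1 were named after their values were seen. Some genes of the lists are not reported here by name.

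Alternatives were DESeq2 1.42.0 (Wald test), RLE normalization, library totals, no filter, a minimum of 10 counts in each sample, a block for the replicate number, all 32 or only the compared wells in the fit, a threshold of 0.01 and each well left out in turn. On simulated data for IFN-γ against untreated cells at 12 hrs (8926 genes), 98 of 100 genes changed 2-fold and 100 of 100 changed 4-fold were recovered with 5 false calls. The changes were put only into genes above a minimum mean count, with the same spread set for all genes. Gbp4, Gbp5, Gbp6, Gbp8 and Gbp9 lay below that minimum, so the recovery does not apply to them. Python 3.11.15 with SciPy 1.17.1 and Matplotlib 3.10.9 was used for tables and plots. A comparison of member proteins was planned and not run, since no protein table was at hand.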

Additional observations from a re-analysis of the deposited data

Results flagged for a closer look

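Among 61 groups of 4 wells with any spread, 8 had 1 well far from the others by Dixon's test. Chance does this for about 1 group in 20 when values are continuous, which does not apply to the 6 groups with 3 wells at 0, since such a group always exceeds the critical value. Gbp3 was lowest in 1 untreated well at 12 hrs, at 8.86 CPM where the others had 11.6 to 12.0 CPM. Gbp6 was highest in 1 IFN-γ well at 4 hrs, at 39.2 CPM where the others had 31.8 to 32.9 CPM. The other 6 were single wells above 3 wells at 0: Gbp5 at 1.98 CPM, Gbp8 at 0.992 CPM and Gbp9 at 0.879 CPM in untreated cells at 4 hrs, Gbp6 at 0.798 CPM with Activin-A at 12 hrs, Gbp8 at 1.72 CPM with IFN-γ at 4 hrs, and Gbp9 at 1.32 CPM with Activin-A at 4 hrs. Each of these 6 values rests on 1 or 2 counts.

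The effect of IFN-γ differed between the times for Gbp2, by a log2FC of 0.61, and for Gbp3, by 1.42, in a test of the difference itself. Means of Gbp3 in untreated wells were 18 ± 3.11 CPM at 4 hrs and 11 ± 1.46 CPM at 12 hrs, and its means with IFN-γ were 446 ± 17.3 and 726 ± 8.11 CPM (SD, n = 4). What part the baseline has in the difference was not tested.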

How the results depend on the processing

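Of the 22 called values of members, 374 of 383 alternatives kept the direction and the call, 9 lost the call and 0 reversed. Of the uncalled values, 796 of 831 alternatives stayed as they were, 31 changed sign and 4 became called. The number of members called for IFN-γ against untreated cells at 12 hrs was 8 with no filter on low counts. With at least 10 counts in every sample it was 2 at 12 hrs and 2 at 4 hrs, and 2 also for both factors against Activin-A at both times, because fewer genes are tested. For both factors against IFN-γ at 4 hrs it was 1 with only the groups compared in the fit and 0 to 1 with a well left out, and the cause was not tested. For the difference of the IFN-γ effect between the times it was 1 to 2 with a well left out, and 4 within the IFN-γ wells.

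Uncalled log2 values that changed sign with a well left out ranged from -0.0019 to 0.35 for Pggt1b (IFN-γ, 12 hrs). For Activin-A against untreated cells the ranges were -0.56 to 0.52 for Gbp4 at 12 hrs, -0.072 to 0.11 for Gbp2 and -0.30 to 0.15 for Gbp3 at 4 hrs. For the interaction they were -0.57 to 0.51 for Gbp4 at 12 hrs, -0.31 to 0.15 for Gbp3 and -0.063 to 0.64 for Gbp6 at 4 hrs. For both factors against IFN-γ they were -0.19 to 0.039 for Gbp4 and -0.048 to 0.034 for Gbp7 at 12 hrs, and -0.21 to 0.026 for Gbp6 at 4 hrs. Between times they were -0.11 to 0.72 for Gbp6 (IFN-γ effect), -0.17 to 0.74 for Gbp4 and -0.29 to 0.55 for Gbp6 (untreated), and -0.054 to 0.40 for Gbp4 (Activin-A effect under IFN-γ).

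Same-numbered wells did not deviate together (mean r = -0.00085 over 112 pairs), and with the replicate block the same 22 values of members were called and each of 13 comparisons had the same count. Of 128 levels under other scalings 2 moved by over 1 SD, Gbp2 with both factors at 4 hrs (3028 CPM) and Gbp3 with IFN-γ at 12 hrs (712 CPM), both by library totals. Depth limited Gbp8, Gbp5 and Gbp9, whose groups without IFN-γ were at or under 3 counts.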
